A study of Mus musculus with 6 samples.

Results

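Small leucine-rich proteoglycans are secreted matrix proteins with a core of leucine-rich repeats that bind collagen fibrils. The 7 genes described here are Bgn, Dcn, Lum, Ogn, Fmod, Prelp and Aspn, chosen by name out of 31276 genes in the count tables, each matching 1 row. Biglycan (Bgn) and decorin (Dcn) carry chondroitin or dermatan sulfate chains and bind transforming growth factor beta, asporin (Aspn) is their close relative without such a chain, lumican (Lum) and fibromodulin (Fmod) steer the assembly and diameter of collagen fibrils, prolargin (Prelp) anchors collagen and basement membrane through a heparin-binding tail, and osteoglycin (Ogn) is also called mimecan. In fibrosing kidneys these proteins are laid down in the interstitium by fibroblasts, and soluble biglycan is known as a ligand of Toll-like receptors on macrophages.

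The transcripts were counted in single cells of obstructed kidneys of 6 C57BL/6 mice, taken 7 days after unilateral ureteral obstruction (UUO), a surgical model of renal fibrosis. The groups were UUO kidneys of mice given SH045 (n = 3) and UUO kidneys of mice given Vehicle (n = 3); both carried the ligated ureter, so no uninjured kidney enters any value, and each library is 1 mouse. The series title presents SH045 as an inhibitor of TRPC6, a cation channel, and the comparison asks which transcripts differ with it. The contralateral and spatial samples were not analysed here. Counts are unique molecular identifiers (UMIs), 1 per captured molecule, and levels are a gene's UMIs relative to all UMIs of the barcodes summed, on the CPM scale. Libraries held 21186872 to 32256602 UMIs, and 23578 of 25978 barcodes were kept.

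A barcode was gated to a cell class when at least 3 of 8 marker genes had a UMI and no other class had as many, and no proteoglycan described here is a marker. The 479 fibroblast barcodes numbered 132, 167 and 89 with SH045 and 23, 37 and 31 with Vehicle. Col1a1 was found in 99.0%, Col1a2 in 99.2%, Pdgfra in 68.7% and Serpinf1 in 46.3% of them. Endothelial barcodes numbered 123, 91 and 114 with SH045 and 34, 44 and 30 with Vehicle, with Pecam1 in 97.0% and Cdh5 in 91.3%. Pericyte or smooth muscle barcodes were few, 11, 12 and 8 with SH045 and 2, 4 and 6 with Vehicle. Of barcode sequences, 209 occurred in more than 1 library, and 11 fibroblast barcodes carried such a sequence. Fibroblasts made up 3.50 ± 0.921% of SH045 and 0.724 ± 0.158% of Vehicle barcodes, and endothelium 3.01 ± 0.667% and 0.859 ± 0.157% (SD, n = 3 each). These shares stand beside every sum over all barcodes below, since such a sum cannot tell more fibroblasts from more RNA per fibroblast.

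The genes lie at 4 places in the mouse genome (GRCm38, the mm10 build of the count tables; spans from GENCODE). Bgn lies at chrX:73483602-73495933 on the plus strand. Dcn (chr10:97479609-97518143) and Lum (chr10:97565128-97572703) are neighbours on the plus strand of chromosome 10. Aspn (chr13:49544443-49567565) and Ogn (chr13:49608046-49624501) are neighbours on the plus strand of chromosome 13. Prelp (chr1:133910304-133921414, minus strand) and Fmod (chr1:134037254-134048277, plus strand) lie near each other on chromosome 1. RefSeq promoters on GRCm38.p6 were at hand for Bgn, Ogn, Fmod, Prelp and Aspn. The 250 bases before the start of 3 genes are shown. They set Bgn, the member with the steadiest fibroblast level across libraries, beside the neighbours Ogn and Aspn, whose fibroblast levels both peaked in 1 library. Fibroblast levels of Fmod and Prelp peaked in that library too, and a link between promoter letters and levels was not tested. Capitals mark matches to motifs searched on both strands, with overlapping matches counted apart. The core promoter motifs searched were the TATA box, spelled TATAAA, and the GC box that Sp1 binds, spelled GGGCGG. The signalling motifs searched were the AP-1 site, spelled TGANTCA, and the SMAD element, spelled CAGACA.
Bgn, chrX:73483351-73483600, plus strand: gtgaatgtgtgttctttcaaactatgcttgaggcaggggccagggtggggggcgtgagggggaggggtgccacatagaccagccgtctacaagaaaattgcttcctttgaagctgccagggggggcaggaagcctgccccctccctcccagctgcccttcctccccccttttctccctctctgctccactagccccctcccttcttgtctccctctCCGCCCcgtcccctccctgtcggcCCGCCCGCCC
Ogn, chr13:49607765-49608014, plus strand: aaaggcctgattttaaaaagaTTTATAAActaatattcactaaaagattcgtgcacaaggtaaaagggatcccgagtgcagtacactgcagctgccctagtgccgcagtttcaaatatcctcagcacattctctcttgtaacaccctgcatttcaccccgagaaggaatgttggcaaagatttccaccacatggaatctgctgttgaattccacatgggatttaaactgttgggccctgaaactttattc
Aspn, chr13:49544193-49544442, plus strand: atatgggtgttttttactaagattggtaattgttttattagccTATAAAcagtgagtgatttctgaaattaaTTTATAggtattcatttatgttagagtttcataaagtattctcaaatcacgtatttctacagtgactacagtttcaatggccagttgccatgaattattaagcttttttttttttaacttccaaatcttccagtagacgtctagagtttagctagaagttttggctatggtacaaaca
The Bgn window was 64.4% G or C and held 3 GGGCGG matches and no TATAAA, the Ogn window was 42.0% and the Aspn window 30%, each with 2 TATAAA matches and no GGGCGG. Over all 32851 mouse promoter windows of that length the median was 52.4%, and 12.4% held TATAAA, 32.7% GGGCGG, 6.75% TGANTCA and 17.1% CAGACA. None of the 5 windows at hand held an AP-1 or SMAD match, and those of Fmod (51.2% G or C) and Prelp (55.6%) held none of the 4 motifs. A match describes letters and is not a shown binding site.

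All 7 transcripts were at their highest, or among their highest, in fibroblasts, and with the libraries pooled fibroblasts held most of their UMIs. Fibroblast barcodes carried 97.0% of Lum, 93.2% of Dcn, 91.2% of Prelp, 89.0% of Ogn, 88.1% of Fmod, 86.8% of Bgn and 86.4% of Aspn UMIs over the 6 libraries, a pool to which SH045 libraries gave most UMIs. Pericytes or smooth muscle held 8.98% of Aspn UMIs, and macrophages, the largest class with 10489 barcodes, held 4.70% of Bgn UMIs. The fibroblast part of Ogn UMIs was 84.3%, 95.9% and 82.1% in SH045 libraries (values are listed by replicate throughout), against 26.1%, 35.6% and 42.9% in Vehicle libraries. That of Fmod was 81.2%, 96.6% and 92.3% with SH045, against 0%, 40% and 66.7% of the few Fmod UMIs with Vehicle. That of Bgn was 86.8%, 92.8% and 87.1% with SH045, against 67.7%, 81.0% and 80.3% with Vehicle, and Aspn was at 38.5% in Vehicle replicate 1.

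**Figure D1:**
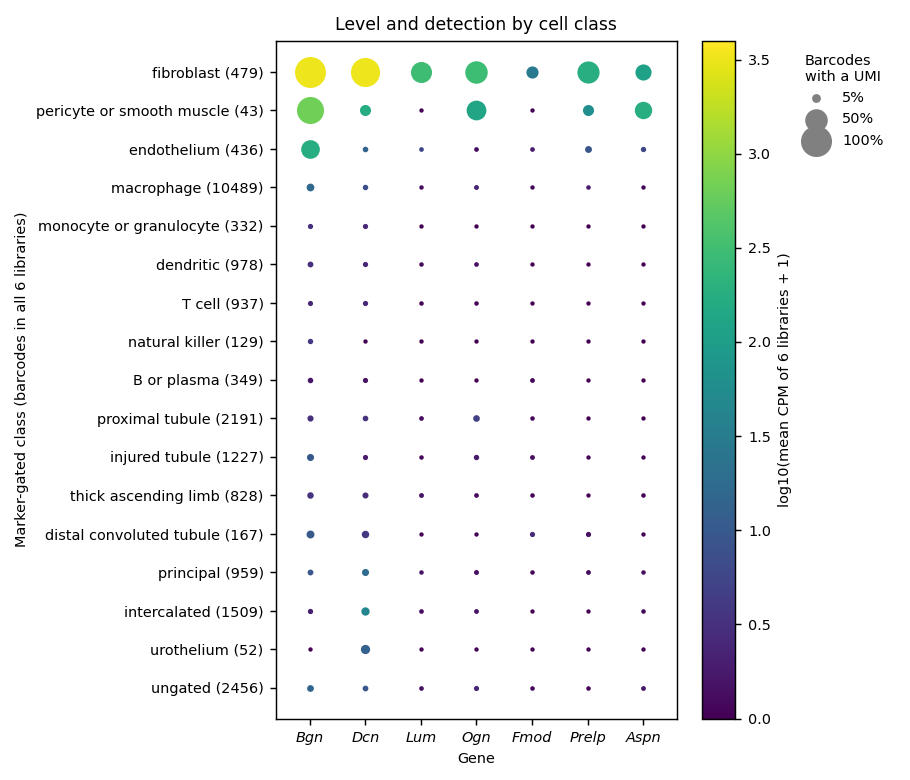
Each dot is a gene (x axis) in a marker-gated class with over 40 barcodes (y axis, number of barcodes in brackets). Dot colour is log10 of the mean CPM of the 6 libraries plus 1 and dot area grows with the percent of barcodes with a UMI. Fibroblasts hold the widest dots for all 7 genes except Aspn, which was found in 27.9% of pericyte or smooth muscle and 23.4% of fibroblast barcodes.

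Levels across classes are given for the 6 libraries together, with their spread, and a two-sided exact sign-flip permutation test over the 6 libraries compared fibroblasts with pericytes or smooth muscle and with endothelium on log2(CPM + 1), adjusted over 14 tests by the Benjamini-Hochberg method. Bgn averaged 3249.7 ± 299 CPM in fibroblasts, 656 ± 357 CPM in pericytes or smooth muscle and 176 ± 130.1 CPM in endothelium (SD, n = 6 libraries). Fibroblasts were above pericytes or smooth muscle in 6 of 6 libraries, by a mean of 2.56 on the log2 scale, and above endothelium in 6 of 6, by 4.63, each with an adjusted exact p of 0.0486, the smallest these 14 tests gave. Pericytes or smooth muscle were not tested against endothelium. It was found in 476 of 479 fibroblast, 32 of 43 pericyte or smooth muscle and 143 of 436 endothelial barcodes. The median depth of these barcodes was 5879, 4280 and 3702 UMIs in the same order. Elsewhere 3.43% of macrophage and 0.534% of T cell barcodes had a UMI, at median depths of 3609 and 3539 UMIs.

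Dcn and Lum were higher in fibroblasts than in both other classes, and Prelp was higher than in endothelium. Dcn averaged 3198 ± 1966 CPM in fibroblasts and 12.1 ± 26.0 CPM in endothelium, and was found in 4 of 43 pericyte or smooth muscle barcodes. Its fibroblast level was above that of both other classes in 6 of 6 libraries (mean log2 differences 7.98 and 9.93, adjusted exact p = 0.0486 each). Lum averaged 306 ± 313 CPM in fibroblasts and was found in 0 of 43 pericyte or smooth muscle barcodes, which allows a share of up to 6.98% with a UMI at this depth, and in 1 of 436 endothelial barcodes. Lum also passed both comparisons (7.64 and 6.82). Prelp averaged 181 ± 61.0 CPM in fibroblasts, above endothelium in 6 of 6 libraries (5.06, adjusted exact p = 0.0486) and above pericytes or smooth muscle in 5 of 6 (4.23, adjusted exact p = 0.0729). Prelp was the member other than Bgn with the most endothelial barcodes, 10 of 436.

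Ogn and Aspn had UMIs in both fibroblasts and pericytes or smooth muscle, and neither difference passed in the gated barcodes. Aspn averaged 115 ± 107 CPM in fibroblasts and 178 ± 132 CPM in pericytes or smooth muscle, with the fibroblast level higher in 3 of 6 libraries and a mean log2 difference of 0.17 (adjusted exact p = 0.906). Ogn averaged 295 ± 428 CPM in fibroblasts and 129.6 ± 136 CPM in pericytes or smooth muscle, higher in fibroblasts in 5 of 6 libraries (1.52, adjusted exact p = 0.202). With clusters in place of the gate, Ogn was higher in fibroblasts in 6 of 6 libraries (2.23, adjusted exact p = 0.0398), and Aspn had the higher value in 5 of 6 (1.65, adjusted exact p = 0.0938). Both were higher in fibroblasts than in endothelium in 6 of 6 libraries (7.02 for Ogn and 4.86 for Aspn, adjusted exact p = 0.0486 each). Fmod, with 155 fibroblast UMIs in all, was higher in fibroblasts than in either class in 5 of 6 libraries and tied at 0 in Vehicle replicate 1 (adjusted exact p = 0.0729 each). The pericyte values rest on 2 to 12 barcodes a library, and fibroblast marker UMIs reached 231 to 4619 CPM in these sums, whose part in the values was not tested.

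UMIs of some members were also counted in tubule barcodes. Free RNA in droplets can give such UMIs, and in T cells, which should lack these genes, Dcn was found in 0.640% and Ogn in 0.107% of barcodes at a median depth of 3539 UMIs. Dcn was found in 64 of 1509 intercalated barcodes (4.24%, 95% exact interval 3.28 to 5.38%), cells of the collecting duct that handle acid and base, against 21 of 2191 proximal tubule barcodes (0.958%, 0.594 to 1.46%), at median depths of 5649 and 5845 UMIs. The intercalated level of Dcn was 80.7, 13.2 and 30.9 CPM with SH045 and 81.3, 48.4 and 10.1 CPM with Vehicle, so the groups overlapped, and single barcodes held up to 46 of the 97 UMIs of SH045 replicate 1. Ogn was found in 44 of 2191 proximal tubule barcodes (2.01%), against 2 of 828 thick ascending limb barcodes (0.242%). Bgn in proximal tubule had 4.98, 4.20 and 1.57 CPM with SH045 and 0.982, 0.498 and 0.621 CPM with Vehicle, and Dcn had 1.66, 8.73 and 2.09 CPM with SH045 and 0.246, 0.249 and 0.621 CPM with Vehicle. The Vehicle values rest on 7 Bgn and 3 Dcn UMIs over 1204 proximal tubule barcodes. SH045 libraries held more fibroblasts, and the part of free RNA in these values was not tested. These intervals cover counting error only. Dcn in intercalated and principal cells, Ogn in proximal tubule, and Bgn, Dcn and Ogn in macrophages passed the low-count filter of the test, and 0 of them were called between SH045 and Vehicle. The fits called 11.2% of genes in macrophages, 2.53% in principal cells, 2.16% in intercalated cells and 0% of 10894 in proximal tubule (edgeR; 1287 there at an unadjusted p under 0.05).

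Summed over all kept barcodes, Bgn, Dcn, Lum and Prelp were higher with SH045, and Ogn, Fmod and Aspn had higher values that did not pass the test. Bgn had 206, 168 and 130.4 CPM in SH045 libraries, against 33.9, 29.9 and 33.1 CPM in Vehicle libraries. Dcn had 158, 323 and 98.7 CPM with SH045 and 30.5, 18.4 and 18.1 CPM with Vehicle. In both genes the lowest SH045 library stood above the highest Vehicle library. Lum had 19.3, 41.7 and 8.19 CPM with SH045 and 0.815, 0.290 and 1.79 CPM with Vehicle. Prelp had 7.76, 13.5 and 7.61 CPM with SH045 and 1.73, 1.22 and 1.72 CPM with Vehicle. Lum and Prelp peaked in SH045 replicate 2, as Dcn did, and their groups did not overlap. Ogn had 15.6, 54.5 and 6.46 CPM with SH045 and 1.17, 1.45 and 2.14 CPM with Vehicle. Aspn had 5.05, 15.8 and 2.83 CPM with SH045 and 0.662, 0.483 and 1.33 CPM with Vehicle. Fmod, the rarest, had 32, 117 and 13 UMIs with SH045 and 6, 5 and 3 UMIs with Vehicle. All 7 were higher in every SH045 library than in every Vehicle library, as were 36.3% of the 14828 genes with a mean of at least 1 CPM.

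**Figure D2:**
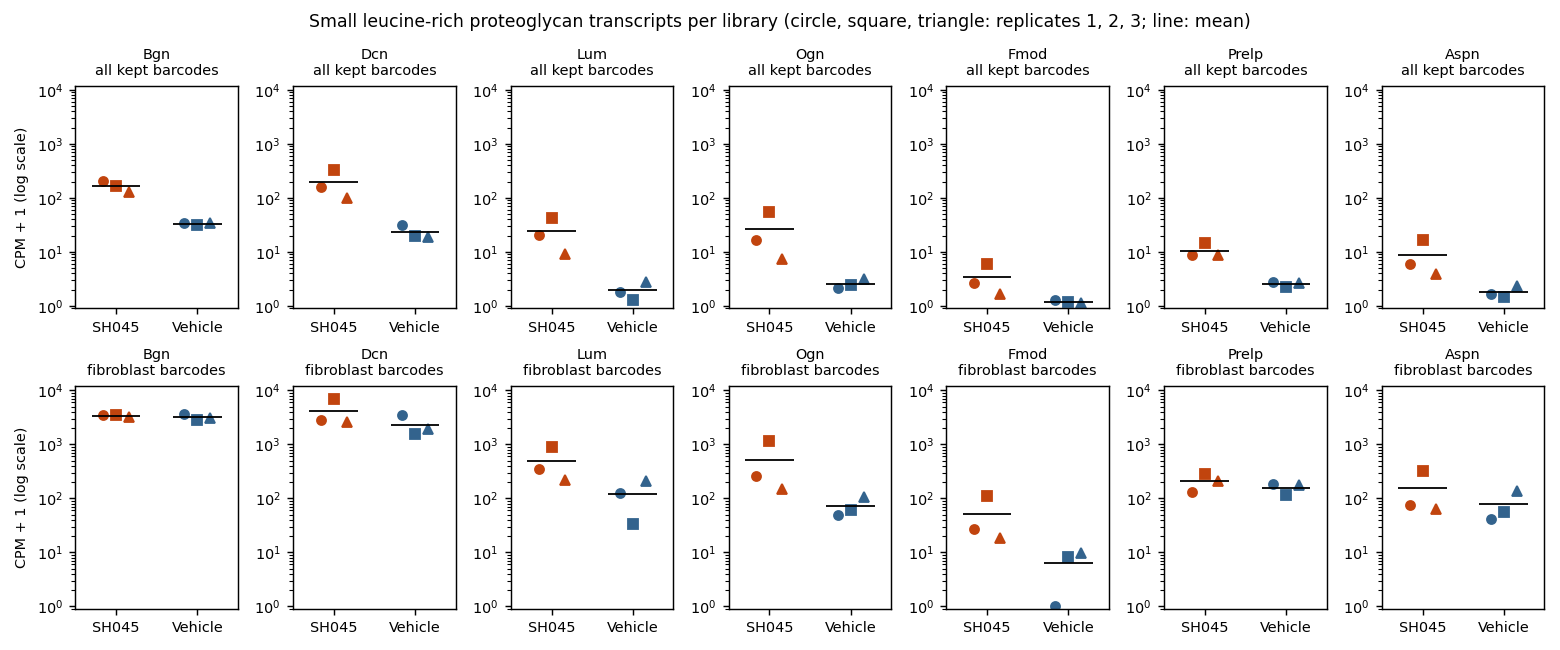
CPM plus 1 (log scale) of each gene in sums over all kept barcodes (upper row) and over fibroblast barcodes (lower row). Points are libraries (circle, square and triangle for replicates 1, 2 and 3; SH045 left, Vehicle right) and lines are means. The groups are apart in the upper row, while in the lower row Bgn lies between 2763 and 3568 CPM in all 6 libraries and SH045 replicate 2 is the top point of the other 6 genes.

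edgeR's quasi-likelihood test on these sums, with Benjamini-Hochberg adjustment over 16532 genes, called 4 of the 7, all higher with SH045, while it called 4.31% of all genes tested and 2.95% as higher. Bgn was higher by 2.14 ± 0.16 on the log2 scale (estimate ± SE, adjusted p = 0.00423), Prelp by 2.41 ± 0.31 (adjusted p = 0.0112), Dcn by 2.88 ± 0.50 (adjusted p = 0.0323) and Lum by 4.36 ± 0.83 (adjusted p = 0.0425). Ogn (3.78 ± 0.84, adjusted p = 0.0600), Fmod (3.49 ± 0.84, adjusted p = 0.0600) and Aspn (3.04 ± 0.74, adjusted p = 0.0658) did not pass. The median of the 7 was 3.04, against 0.01 over all genes tested. On the same scale the fibroblast share differed by 2.27 between the group means (4.84-fold). The calls of Bgn and Prelp held whichever library was left out, that of Dcn was lost without SH045 replicate 1 (adjusted p = 0.0928) or without Vehicle replicate 1, 2 or 3 (adjusted p 0.0701, 0.106 and 0.0917), and that of Lum was lost without any 1 of the 6 (adjusted p 0.0506 to 0.140).

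Other matrix genes gave the setting of these values. Of the collagen partners, 9 of 10 tested were higher with SH045 and 0 lower, led by Col6a2 (3.58 ± 0.19, adjusted p = 0.000958), Col6a1 (3.11 ± 0.21), Col5a1 (3.04 ± 0.29) and Col1a2 (3.27 ± 0.33), chains of the fibrillar and beaded collagens that the proteoglycans bind. Col1a1, Col1a2, Col3a1, Col5a1 and the protease gene Mmp2 are also fibroblast gate markers. The list of proteases also holds the enhancer genes Pcolce and Pcolce2. Of its 12 genes tested, 5 were higher and 0 lower: Mmp9, Mmp2, Bmp1, which trims the biglycan propeptide, and Mmp14 had the smallest p of these (2.23, 2.18, 1.46 and 0.98). Of 7 other small leucine-rich proteoglycan genes tested, Ecm2 alone passed (2.26 ± 0.31, adjusted p = 0.0131). Of 8 large or basement membrane proteoglycans, versican (Vcan, 2.07), perlecan (Hspg2, 1.36) and endocan (Esm1, 1.87) were higher and serglycin (Srgn, of blood-derived cells) fell by 0.69. Of 18 receptors and ligands, fibrillin-1 (Fbn1, 2.54), Wisp1 (1.65), Tgfb3 (1.44) and the endothelial gate marker Kdr (1.52) were higher and 0 lower. Of 23 enzymes that build or sulfate the sugar chains, Csgalnact1 alone passed (1.38 ± 0.31, adjusted p = 0.0498), a share near the 4.31% called over all genes and so no result about that list. The median log2 differences of these lists were 2.92 for collagen partners, 0.93 for proteases, 0.56 for large proteoglycans, 0.38 for receptors and ligands, 0.27 for chain enzymes and 0.21 for the other small proteoglycans.

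Within fibroblasts no member passed the test, and Bgn was nearly level between the groups. Bgn had 3439.9, 3455 and 3184 CPM in SH045 fibroblasts, against 3568, 2763 and 3089.6 CPM in Vehicle fibroblasts. The values interleaved, with a log2 difference of 0.17 ± 0.16 and a 95% interval of -0.17 to 0.51 (adjusted p = 0.774). Dcn had 2778, 6980.4 and 2538 CPM with SH045 and 3417, 1532 and 1939.9 CPM with Vehicle (0.94 ± 0.53, interval -0.37 to 2.25, adjusted p = 0.643). Prelp had 129.5, 285 and 204 CPM with SH045 and 182, 114 and 173 CPM with Vehicle (0.50 ± 0.31, adjusted p = 0.645). Dcn and Prelp overlapped between the groups as well.

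Ogn, Lum and Fmod were the members higher in every SH045 than in every Vehicle library among fibroblasts, 3 of 7, where 7.18% of the 8785 genes with a mean of at least 10 CPM did the same. Ogn had 253, 1155 and 149 CPM with SH045 and 47.5, 58.6 and 107 CPM with Vehicle (2.93 ± 1.1, interval 0.03 to 5.82, adjusted p = 0.517). Lum had 346, 908 and 221 CPM with SH045 and 127, 33.0 and 204 CPM with Vehicle (2.15 ± 0.89, adjusted p = 0.547). The gap between the groups was narrow for both, since SH045 replicate 3 lay close to Vehicle replicate 3. Fmod had 26, 113 and 12 fibroblast UMIs with SH045 and 0, 2 and 2 with Vehicle, and was left out by the low-count filter. Aspn had 72.6, 321 and 61.8 CPM with SH045 and 39.6, 55.0 and 138 CPM with Vehicle (1.02 ± 0.95, adjusted p = 0.785), and without SH045 replicate 2 its log2 difference was -0.21. Without that library the log2 differences were also smaller for Ogn (1.51), Lum (1.32), Dcn (0.28) and Prelp (0.17), while Bgn stayed at 0.13. The fit called 5 of 6591 genes, 0.0759%, 630 had an unadjusted p under 0.05, and DESeq2 also called 0 members. The median over the 6 members tested was 0.98, against 0.00 over all genes. On simulated counts of this depth the test recovered 79% of genes changed 4-fold and 25% of genes changed 2-fold. The simulated spread between libraries followed the trend over all genes, so these shares do not hold for a member that varies more. Ogn and Lum, with log2 differences of 2.93 and 2.15, did not pass. Of the related gene lists Col6a2 alone passed in fibroblasts (1.50 ± 0.23, adjusted p = 0.0256).

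**Figure D3:**
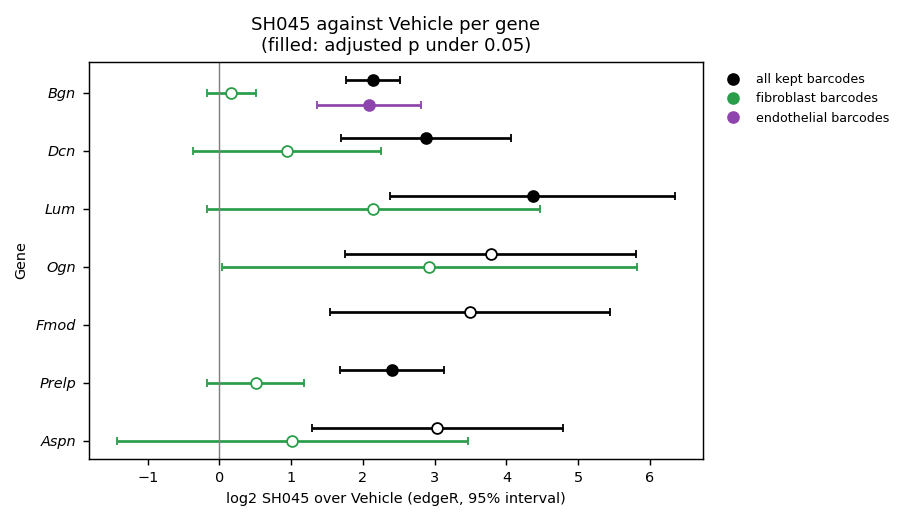
Log2 SH045 over Vehicle (x axis) of each gene (y axis) from edgeR, with 95% intervals, for sums over all kept barcodes (black), fibroblasts (green) and endothelium (purple). Filled points had an adjusted p under 0.05; genes left out by the low-count filter have no point. Bgn is at 2.14 over all barcodes, 0.17 in fibroblasts and 2.09 in endothelium.

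The share of fibroblasts with a UMI was compared as well. Bgn was found in 100%, 98.8% and 98.9% of SH045 fibroblasts and in 100% of Vehicle fibroblasts in each library. Ogn was found in 50.8%, 66.5% and 41.6% with SH045 and in 21.7%, 21.6% and 29.0% with Vehicle. Thinned to 2500 UMIs a barcode, which left out 4 barcodes of SH045 replicate 3, Ogn was found in 33.3%, 59.3% and 21.2% with SH045 and in 8.70%, 16.2% and 22.6% with Vehicle, so the groups then overlapped. Aspn was found in 18.2%, 34.1% and 14.6% with SH045 and in 13.0%, 16.2% and 29.0% with Vehicle, overlapping. Thinned Lum was found in 28.8%, 55.1% and 24.7% with SH045 and in 13.0%, 8.11% and 22.6% with Vehicle. Median depths of fibroblasts were 5276.5, 5535 and 7331 UMIs with SH045 and 4838, 6148 and 7283 with Vehicle.

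SH045 replicate 2 stood apart in the makeup of its proteoglycan transcripts. Of all member UMIs in its fibroblasts 26.1% were Bgn and 52.8% Dcn, whereas Bgn made up 48.8% and 49.9% in the other SH045 libraries and 48.3%, 60.6% and 54.6% in Vehicle libraries. The 7 together reached 7046, 13213 and 6375 CPM with SH045 and 7381, 4562 and 5659.8 CPM with Vehicle (two-sided exact permutation p = 0.3). At least 4 of the 7 were found in 47.7%, 67.7% and 41.6% of SH045 fibroblasts and in 30.4%, 18.9% and 38.7% of Vehicle fibroblasts. Barcodes with all 7 numbered 20 in SH045 replicate 2 and 1 in Vehicle replicate 3, with 0 in the other libraries.

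The ratio of the proteoglycans to fibrillar collagen was taken within fibroblasts. Per 100 UMIs of Col1a1, Col1a2 and Col3a1 in fibroblasts there were 9.25, 8.998 and 13.6 Bgn UMIs with SH045, against 18.9, 19.9 and 14.3 with Vehicle. The groups did not overlap, and the two-sided exact permutation p was 0.1, the smallest that 3 against 3 allows (0.22 adjusted over 11 such quantities, which were chosen after values were seen). The collagen sum itself was 37199, 38394 and 23383 CPM with SH045 and 18898, 13869 and 21560.5 CPM with Vehicle (exact p = 0.1), and the 3 collagens are gate markers. Since that sum did not overlap between the groups, a gene at an equal CPM in all libraries would give ratios that do not overlap either. The Bgn ratio is therefore no result about Bgn apart from that sum. The share of all genes with such ratios was not computed. Dcn had 7.47, 18.2 and 10.9 UMIs per 100 collagen UMIs with SH045 and 18.1, 11.04 and 8.997 with Vehicle, fully overlapping (exact p = 0.8). Ogn had 0.681, 3.01 and 0.635 with SH045 and 0.251, 0.423 and 0.494 with Vehicle (exact p = 0.1). Fmod averaged 0.142 with SH045 and 0.0313 with Vehicle (exact p = 0.1), and Lum 1.41 and 0.618 (exact p = 0.3). Prelp averaged 0.655 with SH045 and 0.862 with Vehicle (exact p = 0.3), and Aspn 0.431 and 0.415. The members thus went in both directions, and the smallest adjusted exact permutation p was 0.22.

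**Figure D4:**
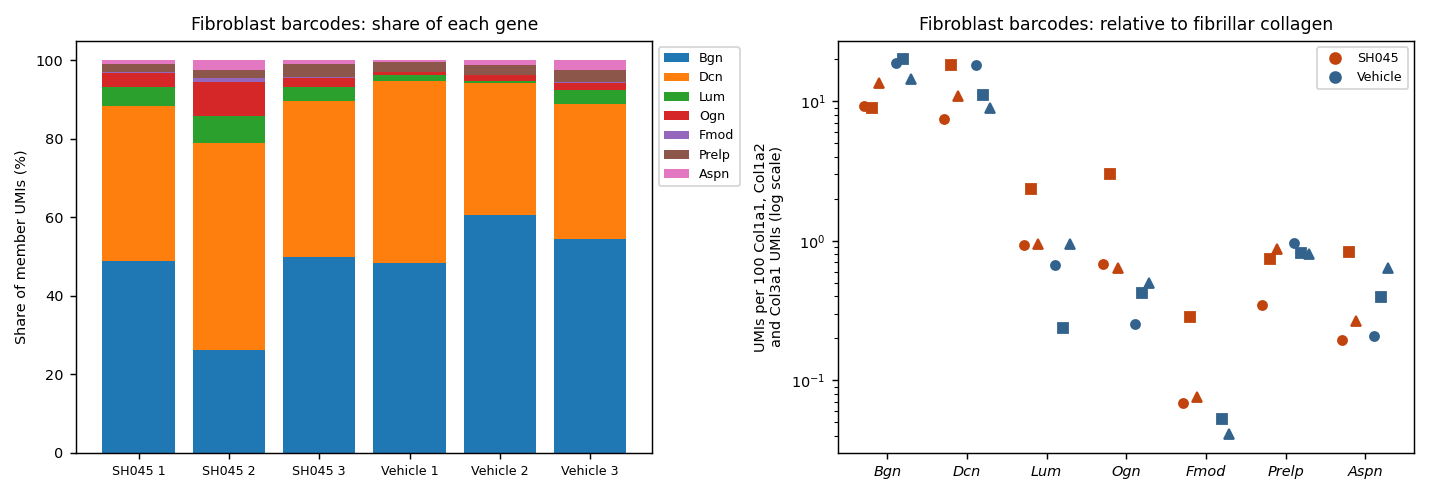
Left, the share of each gene among the UMIs of all 7 in fibroblast barcodes (stacked bars, percent, by library). Right, UMIs per 100 Col1a1, Col1a2 and Col3a1 UMIs in fibroblast barcodes (log scale), with circle, square and triangle for replicates 1, 2 and 3; Fmod of Vehicle replicate 1 is 0 and not drawn. The bar of SH045 replicate 2 has the smallest Bgn part, 26.1%, and Bgn is at 8.998 to 13.6 with SH045 against 14.3 to 19.9 with Vehicle.

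Fibroblasts differed in subset genes as well. Adventitial genes (Pi16, Clec3b, Scara5, Mfap5 or Dpt), which mark fibroblasts of vessel sheaths and capsules, had a UMI in 59.8%, 76.0% and 47.2% of SH045 fibroblasts and in 43.5%, 45.9% and 38.7% of Vehicle fibroblasts. Activation genes (Acta2, Tagln, Postn or Cthrc1), which mark myofibroblasts, had one in 82.6%, 92.2% and 83.1% with SH045 and in 91.3%, 83.8% and 77.4% with Vehicle. The library with the most adventitial barcodes, SH045 replicate 2, is the one where Dcn, Lum, Ogn, Fmod, Prelp and Aspn peaked. In barcodes with an adventitial UMI Dcn had 2924, 7955 and 3195 CPM with SH045 and 5286, 2064 and 2391 CPM with Vehicle. In barcodes without one it had 2305.5, 3252 and 1741 CPM with SH045 and 1922, 1078 and 1660.5 CPM with Vehicle. Dcn had the higher value in adventitial fibroblasts in 6 of 6 libraries, with a mean log2 difference of 0.90 ± 0.43 (SD). Bgn did so in 6 of 6, with 0.39 ± 0.29. The adjusted exact sign-flip p of each was 0.125 over 14 tests. Before adjustment the smallest possible p is 0.03125 with 6 libraries and 0.0625 with the 5 of the activation split. After adjustment none of the 14 could fall under 0.05, so these tests cannot decide whether members differ between the subsets. Without adventitial barcodes the log2 differences between SH045 and Vehicle were 0.31 for Bgn, 0.69 for Dcn, 1.76 for Ogn and 1.14 for Prelp, with 0 called (edgeR adjusted p 0.0898 to 0.714 over the 5 members tested). Ogn had the higher value in barcodes with an activation UMI in all 5 libraries that could be compared (mean log2 2.04, adjusted exact p = 0.125). These subsets of Vehicle libraries hold 10 to 20 barcodes on either side of the adventitial split.

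Within single fibroblasts the rarer members were found together. Of 57 barcodes with an Fmod UMI, 91.2% had Lum and 89.5% Ogn, whereas 36.3% and 44.1% of the barcodes without Fmod did, at median depths of 6473 and 5755.5 UMIs. Lum was found in 48.0% of barcodes with Dcn and 8.06% of those without, at median depths of 5868 and 5995.5 UMIs. Barcodes with Aspn held Ogn in 68.8% and those without it in 43.6%. SH045 replicate 2 gave 42 of the 57 Fmod barcodes, so the shares among Fmod barcodes describe mainly that library. It gave 167 of the 479 fibroblast barcodes, and the other shares were not split by library.

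Over 66 sums (11 classes in 6 libraries, 8468 candidate genes), the 3 genes whose log2(CPM + 1) pattern was most like that of each member other than Dcn are given as a description: the sums share libraries and depth, and the fibroblast sums enter every pair. For Bgn they were Snai2, Sulf1 and Fbn1 (Pearson r 0.94, 0.93 and 0.93), for Lum Mfap4, Pdgfrl and Adamts2 (0.98, 0.97 and 0.97), and for Ogn Dpt, Gli1 and Pdgfra (0.94, 0.92 and 0.92). For Fmod they were Srpx, Cpz and Col8a2 (0.92, 0.90 and 0.90), for Prelp Sdk2, Tmem45a and Pcdh18 (0.96, 0.95 and 0.95), and for Aspn Kcnmb1, Mfap5 and Dact1 (0.96, 0.96 and 0.95). Dpt and Mfap5 are adventitial genes used above and Pdgfra is a gate marker. Among members, Lum and Aspn were most alike (0.92) and Bgn and Dcn least (0.69).

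In endothelium Bgn was higher with SH045. It had 344, 189 and 315 CPM in SH045 endothelium, against 72.5, 31.5 and 102 CPM in Vehicle endothelium, and every SH045 library was above every Vehicle library, as were 9.17% of 9022 genes with a mean of at least 10 CPM. It was found in 43.9%, 28.6% and 40.4% of SH045 and in 11.8%, 11.4% and 26.7% of Vehicle endothelial barcodes. edgeR gave a log2 difference of 2.09 ± 0.34 (interval 1.36 to 2.82, adjusted p = 0.0181), and called 0.646% of 5726 genes, 0.367% as higher. Bgn was the only member to pass the low-count filter there, since the other 6 had 1 to 39 UMIs in SH045 endothelium and 0 to 3 in Vehicle endothelium. The call was lost without SH045 replicate 1 (log2 difference 1.94, adjusted p = 0.0600), without SH045 replicate 3 (2.00, adjusted p = 0.102) and without Vehicle replicate 1 (2.14, adjusted p = 0.135). After removal of likely doublets the difference was as large, at 2.15, with an SE of 0.53 against 0.34 and an adjusted p of 0.178.

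Fibroblast transcripts were present in these barcodes too. The 8 fibroblast markers summed to 1297, 73.5 and 63.5 CPM in SH045 endothelium and 157, 115 and 66.6 CPM in Vehicle endothelium, with 8, 6 and 6 of 8 markers found with SH045 and 5, 4 and 4 with Vehicle. Pdgfra and Loxl1 were at 0 in every library but SH045 replicate 1. Pericyte markers summed to 628, 517 and 755 CPM with SH045 and 1076, 661 and 681 CPM with Vehicle, with 8, 6 and 7 of 8 found with SH045 and 6, 5 and 4 with Vehicle; Notch3 was at 0 in SH045 replicate 2 and in each Vehicle library. The endothelial markers themselves summed to 11859, 8537 and 10065 CPM with SH045 and 6846, 6368 and 6947 CPM with Vehicle, and all 8 were found in each library. The adipocyte list summed to 5064, 4087 and 4622 CPM with SH045 and 2284, 1950.1 and 2007 CPM with Vehicle. Of its 7 genes in the tables, 2, 3 and 2 were found with SH045 and 1 in each Vehicle library, where it was Fabp4, a gene that capillary endothelium also expresses; Plin1, Cidec and Retn were at 0 in all 6 libraries. The endothelial and adipocyte lists thus moved with Bgn, and their part in its difference was not tested. In endothelial barcodes with no fibroblast marker UMI, Bgn had 295, 189 and 299.6 CPM with SH045 and 101, 47.6 and 149.9 CPM with Vehicle. The groups stayed apart, with a smaller log2 difference of 1.43 ± 0.32 (edgeR adjusted p = 0.0490), in a fit that called 0.432% of 4633 genes. This subset was added after values were seen. Compared with all endothelial barcodes, Vehicle values were higher in each library. SH045 values were lower in replicates 1 and 3 and level in replicate 2. The part of fibroblast transcripts in these shifts was not tested. The difference in effect between endothelium and fibroblasts was 1.94 ± 0.41 (log2) with an adjusted p of 0.398 over 6949 genes in the edgeR interaction test, which called 0.072%; leaving out 1 library moved that adjusted p between 0.0471 (without SH045 replicate 2) and 0.781. A difference in effect between the classes therefore did not pass.

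**Figure D5:**
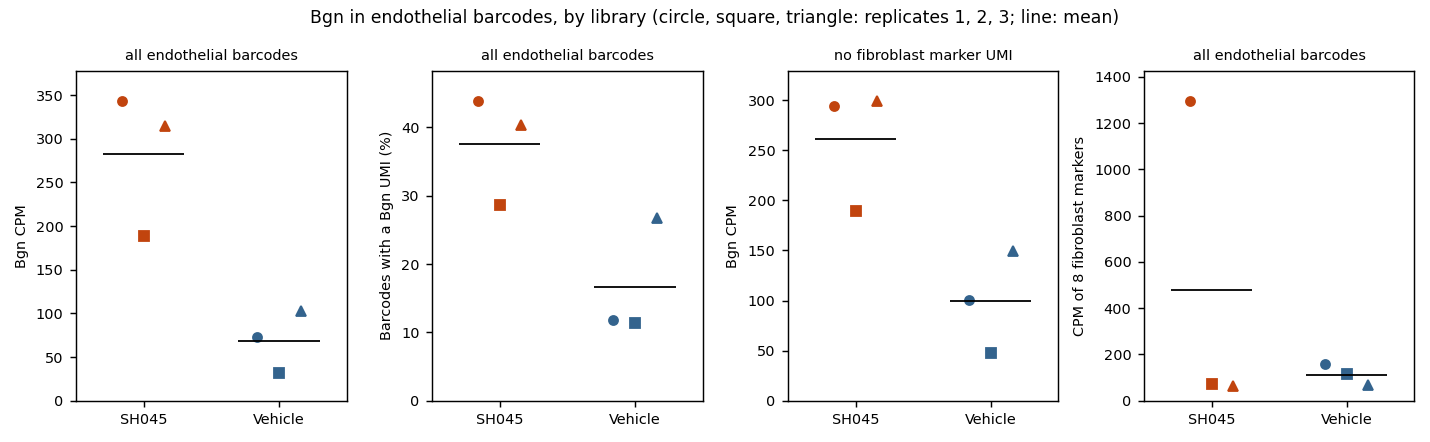
Bgn in endothelial barcodes by library: CPM, percent of barcodes with a UMI, CPM in barcodes with no UMI of any fibroblast marker, and CPM of the 8 fibroblast markers (linear axes from 0). Points are libraries (circle, square and triangle for replicates 1, 2 and 3), lines are means. SH045 points at 189 to 344 CPM lie above Vehicle points at 31.5 to 102 CPM, and the fibroblast markers reach 1297 CPM in SH045 replicate 1.

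In pericytes or smooth muscle the gated barcodes were too few for the test of SH045 against Vehicle. Clusters of cells, used in their place, held 31, 25 and 19 SH045 and 17, 24 and 16 Vehicle barcodes. Of these 132 barcodes 39 passed the pericyte gate, and they averaged 2.52 pericyte and 1.67 fibroblast markers of 8, so the name is less sure than for the gated barcodes. Bgn had 621, 755 and 286 CPM there with SH045 and 456, 371 and 426 CPM with Vehicle (log2 0.52 ± 0.32, edgeR adjusted p = 0.646, 0.485% of 2889 genes called), and the groups overlapped. Aspn had 18, 26 and 9 UMIs with SH045 and 1, 0 and 4 with Vehicle, under the low-count filter. Ogn had 27, 11 and 5 UMIs with SH045 and 1, 2 and 3 with Vehicle. These UMIs are not scaled to depth: Ogn was at 34.1 CPM in SH045 replicate 3, close to 31.1 CPM in Vehicle replicate 3. Neither gene passed the filter with all 6 libraries.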

How the data were processed

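Single-cell RNA was measured in 6 libraries, 1 UUO kidney each, by droplet capture with UMIs. The authors deposited whole-number UMI counts per gene and barcode, not normalized, as 1 matrix a library; the genome was mm10 per the submitters' processing notes, and the aligner, counter and barcode calling are not given in the sources used here. Lowest totals per deposited barcode were 2166 to 3175 UMIs.

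Barcodes with at least 200 genes and at most 50% mitochondrial UMIs were kept (1352 and 2155 failed), and 89.6% were gated among 20 classes. Counts were summed per library and class and tested with edgeR 4.0.16 (R 4.3.3; TMM, expression filter, robust quasi-likelihood, Benjamini-Hochberg threshold 0.05 over all genes). Classes needed 20 barcodes in every library; the planned pericyte gate test was therefore not run, and clusters were used. Doublets were kept in the main values. Clusters came from scanpy 1.11.5 (2000 variable genes, 30 components, 15 neighbours, resolution 1, 32 clusters). Alternatives were DESeq2 1.42.0, other filters and gates, removal of the 5% highest Scrublet scores and leaving out each library. Subset tests needed 5 barcodes on each side. On simulated counts the edgeR step recovered 93%, 79% and 83% of 4-fold changes in all-barcode, fibroblast and endothelial sums. Their spread between libraries followed the trend over all genes, not each gene's own spread.

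The members and lists were chosen with earlier results of these data known. All 7 members are named in each comparison, from each list the called genes with the 4 smallest p, and for each member the 3 most alike genes (those of Dcn are not reported here). Replicate numbers were not used as pairs in the main tests. Deviations of same-numbered libraries correlated at 0.027, 0.090 and 0.262 over all barcodes and at -0.052, 0.028 and 0.060 in fibroblasts. With 3 libraries a group these values cannot show whether mice were paired. Exact intervals of detection shares cover counting error only, while edgeR intervals also include the spread between libraries.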

Additional observations from a re-analysis of the deposited data

How the results depend on the processing

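Over all barcodes the 4 calls among the 7 genes became 7 with DESeq2 (1968 genes called in all, against 713), 2 with no low-count filter (1322 genes) and 2 to 5 when 1 library was left out (119 to 597 genes). With the replicate block 3 members were called (676 genes). Bgn and Prelp kept their calls, Fmod gained one (edgeR adjusted p = 0.0406), and Dcn (0.0521) and Lum (0.121) lost theirs. Whether the labels' numbers pair the mice is not known. In fibroblasts the 0 calls became 1 with no filter (Fmod; 178 genes, against 5), and stayed at 0 with the replicate block (23 genes), DESeq2 (28 genes) and each library left out (0 to 80 genes). In endothelium the 1 call became 2 with no filter (Bgn and Dcn; 142 genes, against 37), 0 with likely doublets removed (12 genes), 0 to 1 with 1 library left out (2 to 48 genes) and stayed at 1 with the block (82 genes). The 9 class-order calls became 11 with clusters (Ogn and Prelp against pericytes gained) and 0 with any library left out, where the smallest possible p is 0.0625. In pericyte clusters 0 to 1 members were called with 1 library left out (Aspn without Vehicle replicate 3). Signs changed for Aspn in fibroblast sums without SH045 replicate 2 (with 1 library left out the log2 difference ran between -0.21 and 1.70), and for Aspn in fibroblasts minus pericytes with a pseudocount of 10 CPM (-0.28) and without Vehicle replicate 2 (-0.96 to 0.64). In the activation split, leaving out 1 library gave -0.0888 to 0.12 for Bgn, -0.49 to 0.11 for Dcn and -0.26 to 0.48 for Prelp (-0.25 without SH045 replicate 3), and removing doublets gave 0.0134 for Dcn. The cause of these shifts was not tested. Alternatives added after seeing the data called 2 genes in fibroblasts and 21 in endothelium with the length trend removed, and 13 without adventitial, 2 without activated and 20 without fibroblast-marker barcodes. Vehicle fibroblasts, 91 in all, limit the depth.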
